A study of Mus musculus with 6 samples.

Results

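The antigen presentation genes were 10 genes picked by name from the 21528 genes listed in at least 1 of 6 mouse liver libraries. Of them, 6 belong to the class I pathway (H2-K1, H2-D1, B2m, Tap1, Tap2 and Nlrc5) and 4 to the class II pathway (H2-Aa, H2-Ab1, H2-Eb1 and Cd74). All 10 were listed in every library and passed the filter on low values. The libraries came from 3 WT livers and 3 KI livers of 5-month-old C57BL/6 mice, and both groups had eaten a diet with 60% fat for 3 months. KI mice carried the trim24 C52/55A allele, which changes a pair of cysteines in the E3-ligase part of TRIM24 to alanine; the study's methods describe homozygous knock-ins made with CRISPR/Cas9 and WT littermates, so the change was present in every cell type and not only in hepatocytes. No sample with a normal diet was analysed here, so all values are those of livers on the high-fat diet. The labels do not say that each library came from a different animal, and p-values then measure only the spread between these samples. Expression was given as FPKM, a level per transcript length and library size, so levels of different genes can be set side by side.

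Class I molecules show peptides from inside the cell to CD8 T cells and are made by nearly all nucleated cells. Peptides are cut by the proteasome, carried into the endoplasmic reticulum by the TAP1-TAP2 transporter, and bound there by a heavy chain (H2-K1 and H2-D1 encode the classical ones) together with beta-2-microglobulin, the product of B2m. Class II molecules show peptides from engulfed proteins to CD4 T cells and are made mainly by dendritic cells, B cells and macrophages, which in liver include the Kupffer cells. NLRC5 and CIITA are the master coactivators of the class I and the class II genes, and both are recruited by proteins on the X and Y boxes upstream of their targets, while interferon-gamma raises both sets.

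The sequences upstream of these genes are shown because they carry the boxes through which the pathway is known to be driven. RefSeq (GRCm38.p6) held an upstream sequence for 6 of the 10 members, and that of H2-Q10, a liver heavy chain described further on, is shown beside them. Each is the 250 bases just before the annotated start, read 5′ to 3′ on the strand of the gene. Their positions were chr17:34000348-34000597 (minus strand) for H2-K1, chr17:35262844-35263093 (plus) for H2-D1, chr17:35469839-35470088 (plus) for H2-Q10, chr2:122147437-122147686 (plus) for B2m, chr17:34187306-34187555 (plus) for Tap1, chr17:34287824-34288073 (minus) for H2-Aa and chr17:34305617-34305866 (plus) for H2-Eb1. H2-K1 had 2 annotated starts and the one farther upstream was used. Capitals mark matches, on either strand, to the Y box core, the X2 core, the interferon element core and a kB site. The letters searched were CCAAT for the Y box, whose other strand reads ATTGG. They were TGACG for the X2 box, GAANNGAAA for the interferon element and GGGATTCCC for the kB site.
H2-K1: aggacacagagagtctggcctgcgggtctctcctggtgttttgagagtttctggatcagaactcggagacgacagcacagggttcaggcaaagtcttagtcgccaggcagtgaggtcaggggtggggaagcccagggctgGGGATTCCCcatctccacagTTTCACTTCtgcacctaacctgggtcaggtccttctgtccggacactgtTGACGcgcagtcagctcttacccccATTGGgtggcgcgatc
H2-D1: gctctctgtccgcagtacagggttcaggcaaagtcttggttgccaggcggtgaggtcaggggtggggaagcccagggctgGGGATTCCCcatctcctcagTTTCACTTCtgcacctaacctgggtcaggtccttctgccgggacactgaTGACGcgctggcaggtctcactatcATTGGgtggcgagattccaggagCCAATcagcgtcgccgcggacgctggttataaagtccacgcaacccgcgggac
H2-Q10: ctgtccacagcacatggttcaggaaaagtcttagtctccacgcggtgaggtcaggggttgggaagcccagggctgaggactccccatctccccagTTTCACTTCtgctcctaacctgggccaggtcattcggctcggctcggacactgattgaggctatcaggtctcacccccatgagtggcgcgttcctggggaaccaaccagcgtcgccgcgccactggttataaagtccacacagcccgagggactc
B2m: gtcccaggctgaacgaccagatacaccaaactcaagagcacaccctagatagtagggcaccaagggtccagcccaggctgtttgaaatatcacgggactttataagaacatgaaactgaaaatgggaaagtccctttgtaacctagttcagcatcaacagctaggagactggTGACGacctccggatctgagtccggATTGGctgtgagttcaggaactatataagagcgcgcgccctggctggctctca
Tap1: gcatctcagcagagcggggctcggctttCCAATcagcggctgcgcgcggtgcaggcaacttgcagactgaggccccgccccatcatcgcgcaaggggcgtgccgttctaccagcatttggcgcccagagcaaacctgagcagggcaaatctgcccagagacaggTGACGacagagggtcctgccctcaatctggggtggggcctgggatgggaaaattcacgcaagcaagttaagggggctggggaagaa
H2-Aa: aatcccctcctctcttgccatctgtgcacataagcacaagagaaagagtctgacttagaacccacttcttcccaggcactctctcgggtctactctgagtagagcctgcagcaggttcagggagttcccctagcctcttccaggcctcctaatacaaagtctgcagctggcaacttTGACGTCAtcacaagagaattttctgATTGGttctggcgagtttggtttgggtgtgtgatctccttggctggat
H2-Eb1: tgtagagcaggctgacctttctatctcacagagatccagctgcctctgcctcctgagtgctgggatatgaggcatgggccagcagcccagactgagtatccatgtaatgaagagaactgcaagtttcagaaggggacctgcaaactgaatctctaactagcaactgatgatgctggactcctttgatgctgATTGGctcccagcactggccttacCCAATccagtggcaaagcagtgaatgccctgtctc

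In H2-K1, H2-D1 and B2m the start of TGACG lay 25 bases before the start of ATTGG on the gene's strand, and in H2-Aa 26 bases before it. A spacing of 20 to 30 bases between these letters, a range chosen after the sequences were seen, was found in 125 of 32851 upstream sequences of this length (0.381%). H2-K1 and H2-D1 also held the interferon element core (6.31% of all upstream sequences) and the kB site (0.301%). H2-Q10 held the interferon element core but none of the other 3 motifs, of which the 2 box cores occurred in 33.8% (CCAAT) and 17.8% (TGACG) of all upstream sequences. In H2-Eb1 CCAAT was matched on both strands and TGACG on neither, and Tap1 had 1 match to each of these 2. In H2-Aa the matches to TGACG on the 2 strands overlapped. Such matches are descriptions of letters and do not show that a factor was bound.

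The 6 libraries were alike in depth, from 0.964 to 1.03 relative to the first WT library, and each listed 17709 to 17984 genes. Trim24 itself was at 5.54, 4.85 and 5.96 FPKM in WT and 6.15, 4.31 and 8.46 in KI, and since the allele changes amino acids, the level does not check the genotype. One KI library stood apart from the others: of 8 adipocyte markers, 5 were highest in KI replicate 2 and near 0 elsewhere. Adipoq was at 4.55, Plin1 at 3.32 and Lep at 3.98 FPKM there and at most 0.127 in any other library, and Retn and Slc36a2 followed the same pattern at 1.59 and 0.51 FPKM. The other 3 did not: Cidec and Cfd were lower there than in any WT library and Adig was highest in KI replicate 1, and the sum of the list, 22.8 FPKM, lay inside the WT range of 18.6 to 29.3. Results that rest on it are given with and without it.

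The members spanned a wide range of levels in WT liver. B2m, at 1959 ± 55.7 FPKM (SD, n = 3), ranked 57 of 12225 genes tested by mean WT level. H2-K1 ranked 119, H2-D1 288, Cd74 872, H2-Aa 1769, H2-Ab1 2013, H2-Eb1 2433, Tap1 3963, Tap2 5098 and Nlrc5 6589. The class I order B2m over H2-K1 over H2-D1 over the transporters held in all 6 libraries. Among class II genes, H2-Aa and H2-Ab1 were close neighbours, and their ratio ran from 1.08 to 1.24 in WT and from 0.91 to 1.22 in KI.

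Of the 10 members 5 fell in the KI libraries at an adjusted p under 0.05 and none rose. The 5 were H2-K1, Tap1, H2-Aa, H2-Eb1 and Cd74. Over all 12225 genes tested, 7.72% were called in either direction and 6.09% were called lower (744 of 944 calls, with 200 called higher). The log2 fold change was negative for all 10 members, with a median of -0.63 beside -0.07 over all genes tested. Log2 fold changes here are of FPKM + 1, so those of genes near or under 1 FPKM understate the ratio of their levels. In 8 of the 10 every WT library lay above every KI library in FPKM as deposited, which was so for 22.5% of all genes tested. The exact permutation p of these 8 was 0.1 each, the smallest possible, and 0.2 for Tap2 and Nlrc5. The class II members had a median log2 fold change of -0.96 with 3 of 4 called, and the class I members one of -0.36 with 2 of 6 called.

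**Figure D1:**
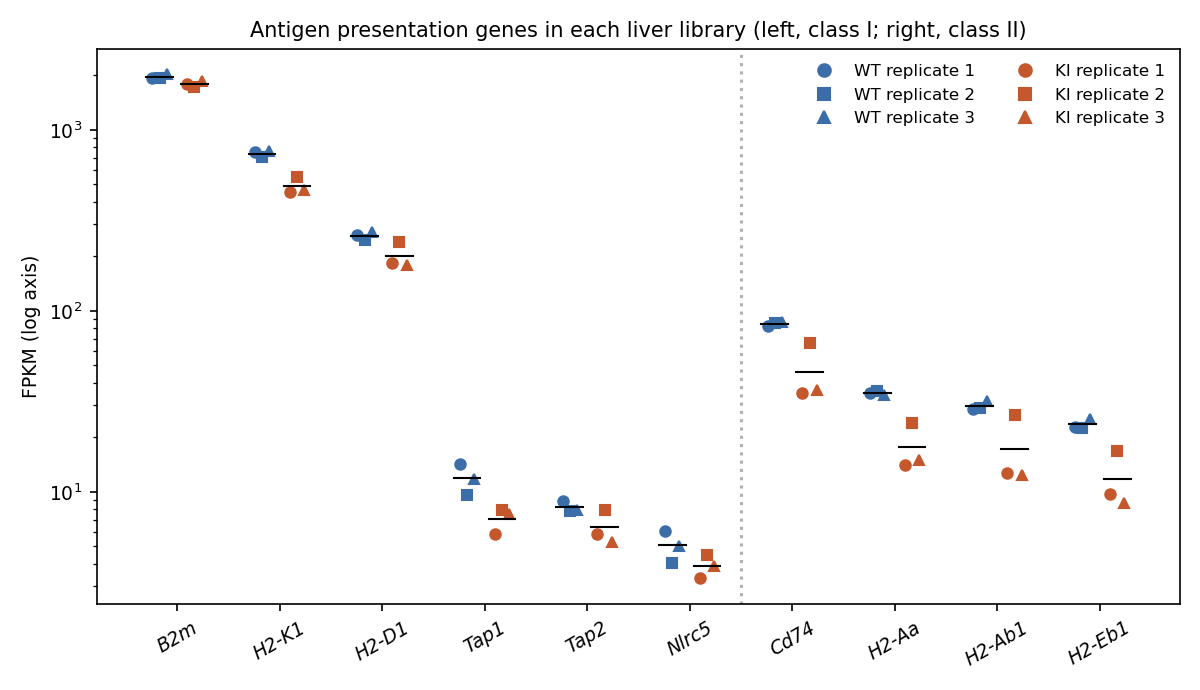
FPKM of the 10 members (log axis) in each of 3 WT (blue) and 3 KI (orange) libraries; marker shape gives the replicate number and the black line the group mean. The KI points lie below all WT points for 8 members, overlap for Tap2 and Nlrc5, and KI replicate 2 is the KI library nearest WT for the 4 class II genes.

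H2-K1, a classical class I heavy chain, stood at 750.7, 705.2 and 763 FPKM in the WT libraries and at 455.6, 546.1 and 465 in the KI libraries. All KI libraries were low and the groups were far apart. The log2 fold change was -0.60 ± 0.09 (SE; limma adjusted p = 0.00939; exact permutation p = 0.1). This call held in all 14 alternative settings, with log2 fold changes between -0.68 and -0.50.

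H2-D1, the other classical heavy chain, was measured at 261.8, 247.4 and 272.5 FPKM in WT and 184.2, 238.7 and 179.5 in KI. The groups did not overlap, but KI replicate 2 came within a few percent of the lowest WT library. Its log2 fold change of -0.39 ± 0.12 missed the threshold (limma adjusted p = 0.0848), and it passed without KI replicate 2 (-0.52, limma adjusted p = 0.0114). The ratio of H2-K1 to H2-D1 was 2.8 to 2.87 in WT and 2.29 to 2.59 in KI, with no overlap, so the level of H2-K1 was lower relative to H2-D1 in the KI libraries. These genes are near-identical in places: 8.11% of the 50-base windows of the H2-K1 transcript and 14.3% of those of H2-D1 occur in another gene, and how the authors' counting split such reads is not known.

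B2m, the light chain that all class I molecules share, had 1933, 1922 and 2023 FPKM in WT and 1782, 1726 and 1870 in KI. Every KI library was below every WT library in FPKM as deposited, by a narrow margin that another scaling can close. Its log2 fold change was -0.13 ± 0.08 with a 95% interval from -0.30 to 0.05 and did not pass the test (limma adjusted p = 0.366). Its estimate stayed negative in all 14 alternatives, from -0.21 to -0.03. With median-of-ratios scaling it was -0.03 (limma adjusted p = 0.895). The tables give B2m a stretch of 66.1 kb that also holds Patl2 and Trim69, but those genes were listed at no more than 0.107 FPKM in any library.

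Tap1, one chain of the peptide transporter, reached 14.2, 9.61 and 11.8 FPKM in WT and 5.88, 7.89 and 7.56 in KI. WT was the more variable group and still lay above KI throughout. Tap1 fell by 0.66 ± 0.15 on the log2 scale (limma adjusted p = 0.0371), a call that held in 6 of 14 alternatives. Tap2, the other chain, had 8.91, 7.88 and 7.98 FPKM in WT and 5.88, 7.97 and 5.26 in KI. KI replicate 2 lay inside the WT range and the other 2 KI libraries below it. Its log2 fold change was -0.34 ± 0.14 (limma adjusted p = 0.181), and without KI replicate 2 it was -0.49 (limma adjusted p = 0.0267).

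Nlrc5, the coactivator of the class I genes, was low, at 6.1, 4.03 and 5.04 FPKM in WT and 3.32, 4.47 and 3.88 in KI. The groups overlapped. The log2 fold change of -0.30 ± 0.15 had a 95% interval from -0.64 to 0.04 (limma adjusted p = 0.272; exact permutation p = 0.2), and it did not pass in any of the 14 alternatives. A fall of the size seen for H2-K1 lies inside that interval.

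Heavy chains outside the members were taken from a list of 29 genes, of which 22 were listed in the tables and 17 were tested. In KI 4 of the 17 (23.5%, beside 7.72% of all genes tested) fell and none rose, with a median log2 fold change of -0.36. Without KI replicate 2 the count was 10 of 17 (58.8%, beside 10.5%). Without WT replicate 1, WT replicate 3 or KI replicate 1 it was 2 (beside 2.55%, 2.46% and 2.4% of all genes tested). H2-Q10, a secreted class I heavy chain made chiefly by liver, had 1770, 1553 and 1681 FPKM in WT and 636.2, 743 and 651.9 in KI (log2 fold change -1.30 ± 0.09, limma adjusted p = 3.33e-04). It was the heavy chain with the highest level in WT. H2-Q1, at a mean of 12.9 FPKM in WT and 3.84 in KI, fell by 1.52 on the log2 scale (limma adjusted p = 3.33e-04). Cd1d1, which presents lipids to NKT cells, fell by 0.55 (limma adjusted p = 0.018) and H2-T22, a ligand of some gamma-delta T cells, by 0.40 (limma adjusted p = 0.0245). Of the 50-base windows of H2-T22, 35.8% occur in another gene, 32% in H2-T10, so its own level is uncertain.

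Summed over 19 H2 class I heavy chain genes, the level was 3065, 2769 and 2995 FPKM in WT and 1459, 1776 and 1490 in KI. The KI sums were all low and lay near 0.535 of WT on average. H2-Q10 made up 56.1% to 57.8% of this sum in WT and 41.8% to 43.8% in KI. B2m per summed heavy chain was 0.631 to 0.694 in WT and 0.972 to 1.26 in KI, without overlap. In 2 of the 3 KI libraries B2m thus exceeded the sum of the heavy chains, which it did in none of the WT libraries. H2-Q10 shares 19.7% of its 50-base windows with other genes, so part of the split between heavy chains is uncertain, while the sum depends on it less.

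**Figure D2:**
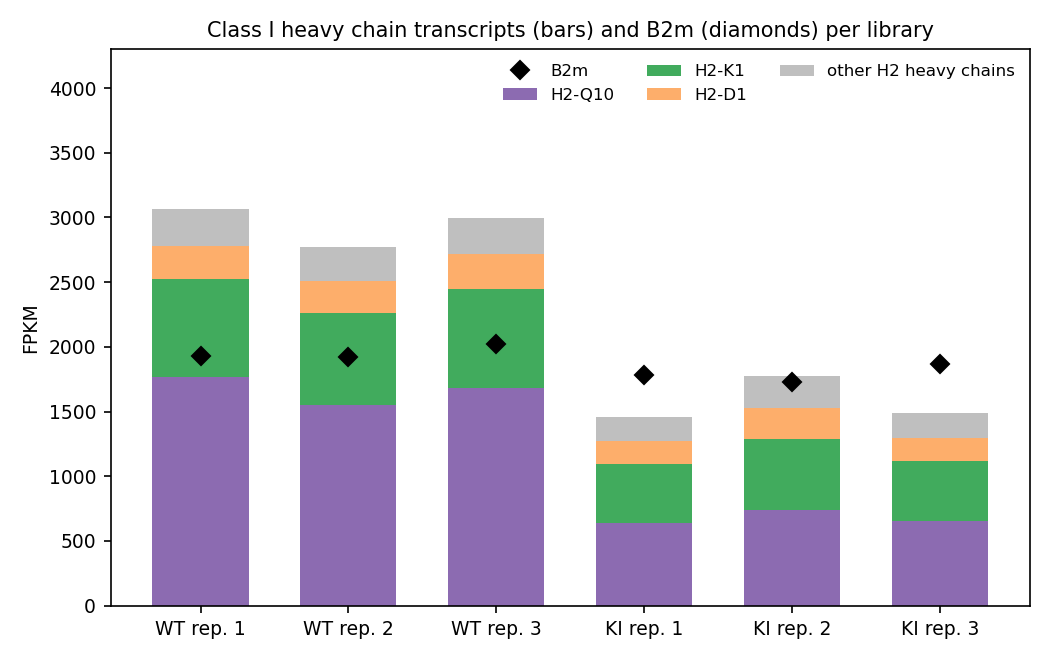
Stacked FPKM of H2-Q10, H2-K1, H2-D1 and the other H2 class I heavy chains per library (bars, linear axis from 0), with B2m as diamonds. Bars reach 2769 to 3065 in WT and 1459 to 1776 in KI, while B2m stays between 1726 and 2023.

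The class I loading list held 15 genes: those that cut, trim, carry or chaperone class I peptides, and the transcription factors Irf1 and Irf2. Of the 15, 2 (13.3%, beside 7.72% of all genes tested, so not far from that share) fell while none rose. Leaving out any 1 WT library or KI replicate 1 left 1 call (beside 2.4% to 3.88% of all genes tested). Leaving out KI replicate 2 gave 3 (20%, beside 10.5%). The 2 genes that fell with all libraries in were subunits of the immunoproteasome, the form of the proteasome adapted to class I peptides. Psmb8 had 22, 24.7 and 25.2 FPKM in WT and 12.9, 15.1 and 11.4 in KI (log2 fold change -0.83 ± 0.11, limma adjusted p = 0.00623). Psmb9 had 9.78, 10.6 and 9.97 FPKM in WT and 5.14, 6.14 and 7.72 in KI (-0.62 ± 0.13, limma adjusted p = 0.0288). Psmb10, the remaining inducible subunit, was at 18 ± 1.49 FPKM in WT and 17 ± 2.68 in KI (SD, n = 3), and the groups overlapped.

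The tables give Tap1 and Psmb9 the same genomic stretch, and likewise Tap2 and Psmb8, since these genes lie next to each other on chromosome 17 (Tap1 at 34187553 to 34197225, Tap2 at 34203527 to 34216321). Tapbp, which bridges the transporter and the heavy chain, had 27.5 ± 1.81 FPKM in WT and 19.8 ± 4.71 in KI (SD, n = 3; log2 fold change -0.48, limma adjusted p = 0.0951). The median log2 fold change of the list was 0.04. Irf1, an interferon-induced activator of class I genes, was at 13.4 FPKM in WT and 14.3 in KI (log2 fold change 0.09, limma adjusted p = 0.752).

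Cd74, the invariant chain that guides class II molecules to the peptide compartment, was the most abundant class II member. It stood at 82.9, 86.1 and 86.3 FPKM in WT and at 35.3, 66.1 and 36.4 in KI. WT was tight, a pair of KI libraries was below 40, and KI replicate 2 lay between them and WT. Cd74 fell by 0.94 ± 0.21 on the log2 scale (limma adjusted p = 0.0349).

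H2-Aa, the alpha chain of the I-A molecule, had 35.4, 35.8 and 34.4 FPKM in WT and 14.1, 24.1 and 15 in KI. Its log2 fold change was -0.99 ± 0.18 (limma adjusted p = 0.0159). H2-Eb1, a beta chain of I-E, had 22.8, 22.7 and 25.2 FPKM in WT and 9.71, 16.9 and 8.67 in KI (log2 fold change -0.998 ± 0.207, limma adjusted p = 0.0264). In both, as in Cd74, KI replicate 2 was the highest KI library and still under every WT library. H2-Ea, the alpha chain partner of H2-Eb1 that C57BL/6 mice are known not to make, was listed in no library.

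H2-Ab1, the beta chain of I-A, was at 28.5, 29 and 31.9 FPKM in WT and 12.7, 26.4 and 12.4 in KI. KI replicate 2 came close to WT here, and the KI spread was the widest of the class II members relative to its mean. The log2 fold change of -0.84 ± 0.25 did not pass (limma adjusted p = 0.0826); without KI replicate 2 it was -1.18 (limma adjusted p = 9.84e-04). Proportions among the class II genes overlapped between groups. Cd74 per H2-Aa ran from 2.35 to 2.51 in WT and 2.42 to 2.74 in KI, and H2-Eb1 per H2-Aa from 0.632 to 0.731 and 0.576 to 0.701.

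The libraries other than KI replicate 2 gave a stronger contrast. Summed over the 4 class II members the level was 169.6, 173.5 and 177.8 FPKM in WT and 71.8, 133.5 and 72.5 in KI. Without KI replicate 2, 8 of the 10 members were called lower (all but B2m and Nlrc5), beside 10.5% of all genes tested called in either direction. The class II median log2 fold change was then -1.22 and the class I median -0.51 (all 4 and 4 of 6 called). Among the KI libraries, replicate 2 was the highest for all 4 class II members, at 1.65 to 2.11 times the mean of the other 2. It was also the highest for 5 of 6 class I members, at 1.17 to 1.43 times. For B2m it was not the highest, at 0.945 times. The part of the adipocyte transcripts of this library in the members' values was not tested. Leaving out any of the other 5 libraries left 1 or 2 members called, H2-K1 in every case, while the share of all genes called was then 2.4% to 6.42%. Over the 14 alternatives the highest limma adjusted p was 0.065 for H2-Aa, 0.104 for H2-Eb1, 0.124 for Cd74 and 0.127 for Tap1.

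**Figure D3:**
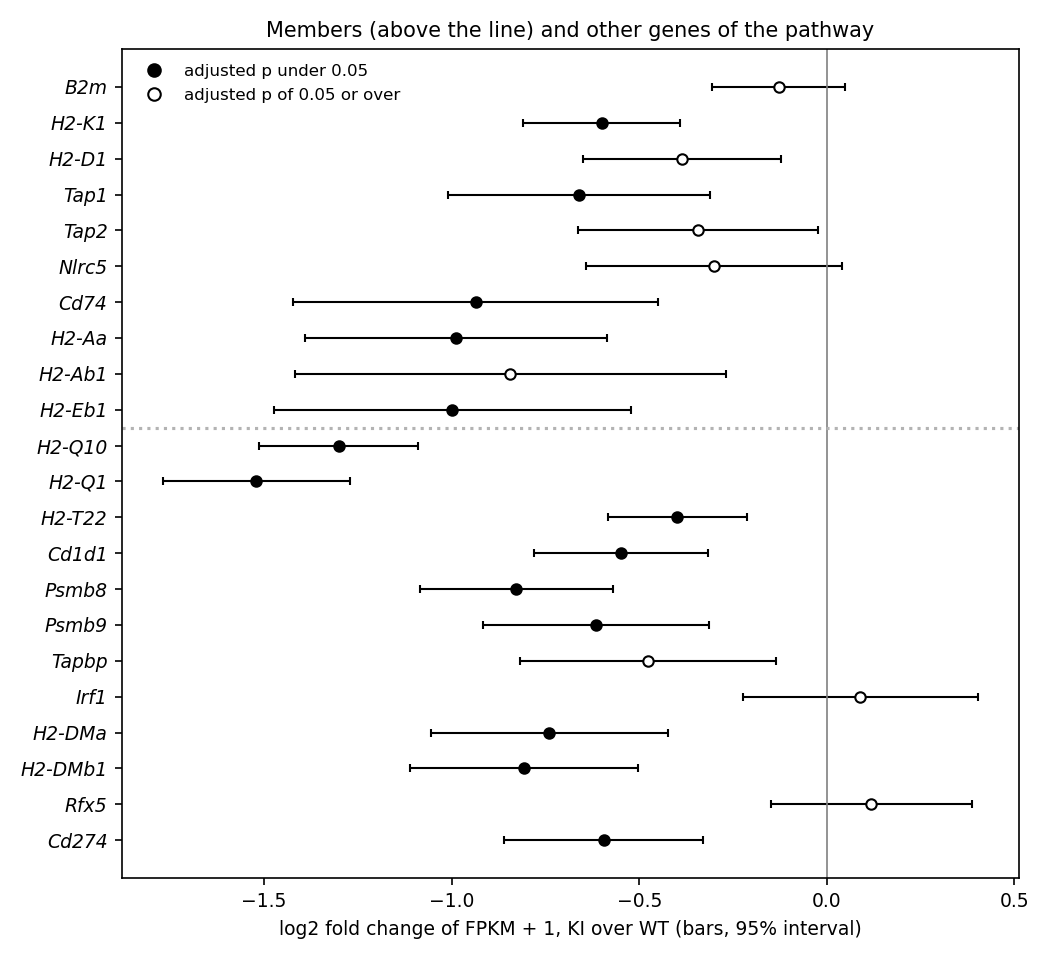
Log2 fold change of FPKM + 1, KI over WT, for the members (above the dotted line) and other genes of the pathway (below it), with 95% intervals; filled points have an adjusted p under 0.05. All 10 members lie left of 0, from -0.13 for B2m to -0.998 for H2-Eb1, and H2-Q1 and H2-Q10 lie farthest left.

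Beyond the 4 members, the class II list held 23 genes (under 25 symbols), of which 20 were listed, 16 tested and 2 fell (12.5%, beside 7.72% of all genes tested, so not far from that share). The count was 4 of 15 without KI replicate 2 (26.7%, beside 10.5% of all genes tested). It was 0 without WT replicate 1 (limma, with 4 at an unadjusted p under 0.05), beside 2.55% of all genes tested. It was 1 without WT replicate 2, WT replicate 3 or KI replicate 1 (beside 3.88%, 2.46% and 2.4%). The 2 genes were H2-DMa (3.63, 3.35 and 3.44 FPKM in WT; 1.63, 2.22 and 1.26 in KI; log2 fold change -0.74 ± 0.14, limma adjusted p = 0.0186) and H2-DMb1 (4.05, 3.57 and 3.55; 1.31, 2.16 and 1.69; -0.81 ± 0.13, limma adjusted p = 0.0125). Their products form the H2-DM molecule that loads peptides on class II. Ciita, the class II coactivator, was below the filter, at 0.367, 0.51 and 0.385 FPKM in WT and 0.178, 0.177 and 0.119 in KI, and entered only the fit without a filter (log2 fold change -0.29 ± 0.06, limma adjusted p = 0.065, unadjusted p = 0.00164). Its groups did not overlap (exact permutation p = 0.1), but 1 fragment per kilobase is worth 0.0588 to 0.0615 FPKM, so these are few fragments. Rfx5, a subunit of the factor that binds the X box, was at 3.11 FPKM in WT and 3.46 in KI (log2 fold change 0.12, limma adjusted p = 0.601). Over the 16 genes the median log2 fold change was -0.14. Of 3 co-stimulation genes tested, 1 was called (33.3%, beside 7.72% of all genes tested). It was Cd274, which encodes PD-L1 and was chosen after its values were seen. Cd274 fell by 0.59 on the log2 scale of FPKM + 1 (limma adjusted p = 0.0215). Its mean went from 1.17 FPKM in WT to 0.431 in KI, a ratio of 0.37. The other 2, Cd86 and Cd83, had log2 fold changes of -0.39 and -0.48 without passing.

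Interferon signalling genes were looked at because interferon raises both classes. Of 39 such genes 36 were tested, 6 fell and 1 rose (19.4% called, beside 7.72% of all genes tested). The 7 calls became 1 without WT replicate 1, WT replicate 3 or KI replicate 1 (beside 2.55%, 2.46% and 2.4% of all genes tested). They became 3 without WT replicate 2 (beside 3.88%) and 4 without KI replicate 3 (beside 6.42%). Without KI replicate 2 they were 8 (22.2%, beside 10.5%). Cxcl10 and Cxcl9, chemokines that draw T cells, fell by 1.38 and 1.08 on the log2 scale (limma adjusted p = 0.00273 and 0.0243). Gbp2 fell by 0.73, Igtp by 0.67, Isg15 by 0.66 and Gbp5 by 0.44 on this scale of FPKM + 1. Their mean FPKM in KI was 0.498, 0.607, 0.603 and 0.406 of that in WT, in the same order. As a ratio Gbp5 thus fell most among them, from a mean of 0.801 FPKM in WT to 0.326 in KI. Iigp1, an interferon-induced GTPase like Igtp, rose by 0.46 (limma adjusted p = 0.0132), from 90.2 ± 2.33 to 124.7 ± 8.55 FPKM (SD, n = 3). The median over the list was -0.13.

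Whole liver holds several cell types that make class II, and in such bulk samples fewer cells of a type and less RNA per cell cannot be told apart. Macrophage markers summed to 330.8, 411.6 and 403 FPKM in WT and 270, 390.4 and 277.2 in KI, so the sums overlapped through KI replicate 2 alone, which was again the highest KI library (for 13 of 14 markers), while the other 2 KI sums lay below every WT sum. In limma none of the 14 was called (beside 7.72% of all genes tested) and 3 had an unadjusted p under 0.05. All 14 log2 fold changes were negative with a median of -0.29. Without KI replicate 2, 5 of the 14 were called lower (35.7%, beside 10.5% of all genes tested) with a median of -0.44. Adgre1 (F4/80) was at 9.13 FPKM in WT and 7.8 in KI, and Clec4f, a Kupffer cell marker, at 54.6 and 46.2. The class II sum per summed macrophage marker was 0.422 to 0.513 in WT and 0.262 to 0.342 in KI, without overlap. Per single marker, Cd74 per Csf1r, per Adgre1 and per Cd68 likewise did not overlap, whereas Cd74 per Ptprc (CD45) did, at 36.1 to 50.9 in WT and 19.5 to 36.4 in KI.

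General leukocyte markers summed to 38.8 to 42.3 FPKM in WT and 27.2 to 32.3 in KI, with 2 of 6 called lower (33.3%, beside 6.09% of all genes tested), Laptm5 and Coro1a, while Ptprc was at 2.03 and 1.79 FPKM (log2 fold change -0.11, limma adjusted p = 0.636). Dendritic cell markers summed to 4.58 to 5.65 FPKM in WT and 4.2 to 5.35 in KI, and B cell markers to 2.75 to 3.05 and 2.35 to 2.73; of 4 and 2 tested, limma called none, also at an unadjusted p under 0.05. Of the defining genes of dendritic, B and T cells, Itgax had at most 0.561, Cd79a at most 0.775 and Cd3e at most 0.877 FPKM in any library. T and NK cell markers summed higher in KI (4.96 to 5.97 FPKM, against 4.45 to 4.72 in WT), which rested on Cd4. That gene rose from 0.394, 0.408 and 0.349 FPKM in WT to 1.97, 1.87 and 2.12 in KI (log2 fold change 1.11, limma adjusted p = 0.00108), and without it, a choice made after its values were seen, the sums were 4.05 to 4.31 in WT and lower in KI, at 2.83 to 3.998. Sinusoidal endothelial markers ran from 169.7 to 176.9 FPKM in WT and 161.3 to 165.9 in KI, with Stab2 at 7.52 and 6.54; the only one of the 10 called (10%, beside 7.72% of all genes tested, so near that share) was Lyve1, at 8.39, 5.25 and 5 FPKM in WT and 0.974, 2.84 and 2.38 in KI (log2 fold change -1.26, limma adjusted p = 0.0281). The part of these cell types in the members' values was not tested. Hepatocyte markers gave no call among 6 tested by limma (3 at an unadjusted p under 0.05, all 3 with higher KI means), and their median log2 fold change was 0.23.

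**Figure D4:**
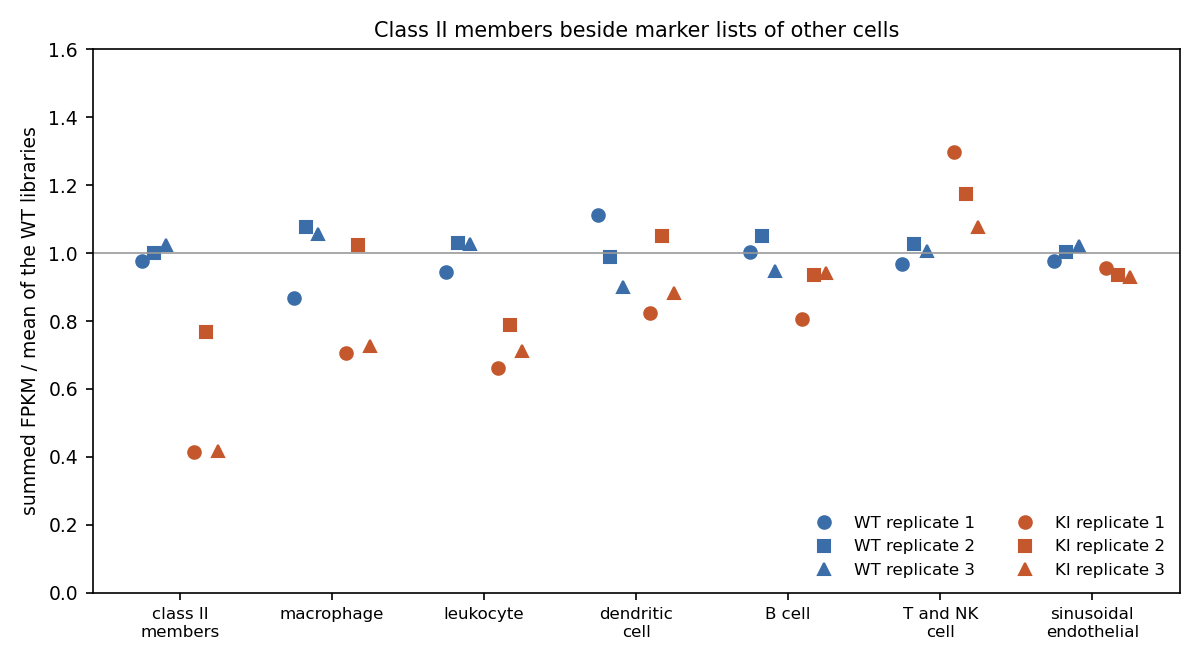
Summed FPKM of the 4 class II members and of marker lists of other cells in each library, divided by the mean of the WT libraries (linear axis from 0; blue, WT; orange, KI; shape, replicate number). Class II sums of all KI libraries lie below WT, macrophage sums overlap only through KI replicate 2, dendritic cell sums overlap, and KI replicate 2 is the KI library nearest WT in class II.

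The genes whose pattern over the 6 libraries was most like the class II members were Arhgap17 (Pearson r = 0.996), Slc16a11 (0.995) and Myo1d (0.994). Those most like H2-K1, H2-D1 and B2m together included Sqstm1 and Actr1b (0.999 each). With 6 libraries in 2 groups such values describe a shared contrast between groups and carry no test.

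Most members lie in the major histocompatibility complex on chromosome 17 (GRCm38): H2-K1 at 33996017 to 34000347, H2-Ab1 at 34257689 to 34269419, H2-Aa at 34282744 to 34287823, H2-Eb1 at 34305867 to 34316674 and H2-D1 at 35262730 to 35267499. B2m lies on chromosome 2, Nlrc5 on chromosome 8 and Cd74 on chromosome 18. Between 33974831 and 36190287 on chromosome 17, a stretch chosen after values were seen, 70 tested genes were on none of the lists. Of these 4 were called, 2 lower and 2 higher (5.71%, beside 7.72% of all genes tested), and their median log2 fold change was -0.07.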

How the data were processed

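Liver RNA-seq tables of 6 libraries were analysed, 3 WT and 3 KI. Each deposited table gave FPKM (fragments per kilobase of transcript, scaled to the mapped fragments of the library) per gene, computed by the authors and listing only genes above 0; a gene missing from a library was set to 0. The submitters' processing notes name bcl2fastq, Salmon 0.14.0, DESeq2 1.30.0 and GRCm38; the aligner and annotation are not given in the sources used here. No counts were used, so depth is known only in relative terms, from the step that 1 fragment adds. Values were tested as log2(FPKM + 1) for the 12225 genes that averaged 0.5 FPKM or more over the 6 libraries, by limma 3.58.1 (R 4.3.3; moderated, with a mean-variance trend; Benjamini-Hochberg adjustment over all 12225 genes). No other samples or covariates entered the fit. The fit was tested on simulated data. An exact two-sided permutation test per member cannot go below p = 0.1 with 3 against 3. Alternatives were another pseudocount, filters and scalings, a fit without the trend, a replicate block and leaving out each library. Members and lists were chosen with earlier results of these data known. All 10 members were named, as were the genes of the class I loading, other heavy chain, other class II and interferon lists that passed an adjusted p of 0.05 (at most 6 per list and direction), some regulators and defining cell markers whatever their values, and the genes most alike in pattern (at most 3 per group of members); a few others were chosen after their values were seen. Gene coordinates are from GENCODE M21 and upstream sequences from RefSeq (GRCm38.p6). Sums and ratios of FPKM were given by range, with no test. A few named genes are not reported here.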

Additional observations from a re-analysis of the deposited data

How the results depend on the processing

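Over 14 alternatives per member, none of the 140 log2 fold changes reversed, 110 stayed on their side of the threshold, 26 calls were lost and 4 were gained; the cause was not tested. Without a filter 1 of the 10 members was called, 1 class I loading gene, 2 other heavy chains, 0 other class II genes (limma; 6 at an unadjusted p under 0.05), 3 interferon genes and 347 genes in all. Quantile normalization gave 3 members. It gave 1 class I loading gene, as did median-of-ratios scaling. Scaling to TPM called 1552 genes, 1359 lower and 193 higher; median-of-ratios called 655 (405 and 250) and quantile normalization 633 (378 and 255), beside 744 and 200 as deposited. Leaving out 1 library gave 1 to 8 members (8 without KI replicate 2, 1 or 2 without any of the other 5), 1 to 3 class I loading genes, 2 to 10 other heavy chains, 0 to 4 other class II genes (limma; 0 without WT replicate 1, where 4 had an unadjusted p under 0.05), 1 to 8 interferon genes and 294 to 1280 genes in all.

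With a replicate block, 578 genes were called in all, 4 members, 1 class I loading gene and 4 interferon genes. Deviations of same-numbered libraries correlated at -0.12, -0.10 and 0.003, and those of the other pairs between groups at -0.05 to 0.14. These values show no pairing by number, but with 3 libraries per group they cannot exclude one.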
